A study of Mus musculus with 9 samples.

Results

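The genes described here are the Wnt ligands, their Frizzled and LRP receptors, the R-spondins, the secreted Wnt inhibitors and a few readouts of the pathway, in mouse ear skin. The rule picks genes by symbol and by no measured value, and it was set with earlier results of these data known. Where a gene had several probe sets, the brightest over the 9 arrays was kept. A gene entered if its symbol starts with Wnt or Fzd and a digit, or with Dkk, Sfrp or Rspo, or is Wif1, Frzb, Lrp5, Lrp6, Lgr5, Axin2, Lef1, Tcf7 or Porcn. This gave 51 genes of the 19938 measured with a single symbol, and Tcf7 was not analysed here. The 51 hold all 19 ligands of the mouse, 10 Frizzled receptors, Fzd10os, which is a transcript named for the opposite strand of Fzd10, and Dkkl1, a Dkk-like gene that is not an established Wnt inhibitor.

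Total RNA from whole ear skin of female C57BL/6 mice aged 7 to 9 weeks was hybridised to Affymetrix Mouse Gene 1.0 ST arrays, with 3 arrays in each of 3 groups. In the anisomycin group, anisomycin at 2 mg/ml in 99.5% ethanol was put on both sides of the ear once daily for 5 days, 10 µl per side. Anisomycin blocks protein synthesis at the ribosome and activates stress kinases. In the imiquimod group, 10 mg of a 5% cream of imiquimod, a Toll-like receptor 7 ligand, was put on both sides of the ear once daily for 5 days. The vehicle group is named so in the labels, which do not say which vehicle it received or for how long, and whether ethanol and the cream base each had a control is not given. No genotype beyond the strain is given, and whether the 3 samples of a group came from separate mice is given only as n = 3. If they did not, the p-values cover a spread between samples that may be technical. Values are log2 expression values, a log2 fold change is a difference of group means on that scale, with n = 3 in each group and its standard error (SE) taken from the limma fit. A gene is said to have risen or fallen where limma's Benjamini-Hochberg adjusted p over all 19938 genes was under 0.05.

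Wnts are secreted, lipid-modified proteins that bind a Frizzled receptor together with Lrp5 or Lrp6. The signal keeps beta-catenin from being destroyed, and beta-catenin then acts with TCF and LEF transcription factors on target genes such as Axin2. R-spondins strengthen the signal through Lgr receptors, while sFRPs, Wif1 and Frzb bind Wnts outside the cell and Dkk proteins block the LRP co-receptors. In skin the pathway is known for starting hair follicle growth, for keeping follicle and epidermal stem cells dividing and for exchange between epidermis and dermis.

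Most of the genes that moved fell. With anisomycin 30 of the 51 fell and 2 rose, where 23.3% of all genes fell and 22.3% rose. With imiquimod 28 fell and 3 rose, where 22.4% of all genes fell and 20.4% rose. The median log2 fold change of the 51 was -0.41 with anisomycin and -0.26 with imiquimod, beside medians over all genes of -0.01 and -0.03. Of the 51, 25 fell with both treatments and Wnt4 alone rose with both, where 17.5% of all genes fell and 16% rose with both. The treatments share their vehicle arrays, so these counts are not independent of each other. The vehicle arrays lay apart from all 3 anisomycin arrays, and above them, for 31 of the 51 (26.4% of all genes), and above all 3 imiquimod arrays for 32 (27.4% of all genes). Counting both directions, arrays did not overlap for 33 genes with anisomycin (51.3% of all genes) and 36 with imiquimod (51.8%). A fall of at least 2-fold was called for 8 of the 51 with anisomycin (3.45% of all genes) and 6 with imiquimod (2.6%). The largest of these falls were in secreted inhibitors. The balance of rises and falls depended on the scaling. The share of higher among all called genes was 49% with anisomycin, 37.1% with arrays centred on genes of stable rank and 56.4% with arrays centred on their medians. With imiquimod it was 47.7%, 36.4% and 54.7% in these settings. Centred on stable genes, 36 of the 51 fell with anisomycin and 32 with imiquimod, and centred on medians 29 and 24 did.

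**Figure D1:**
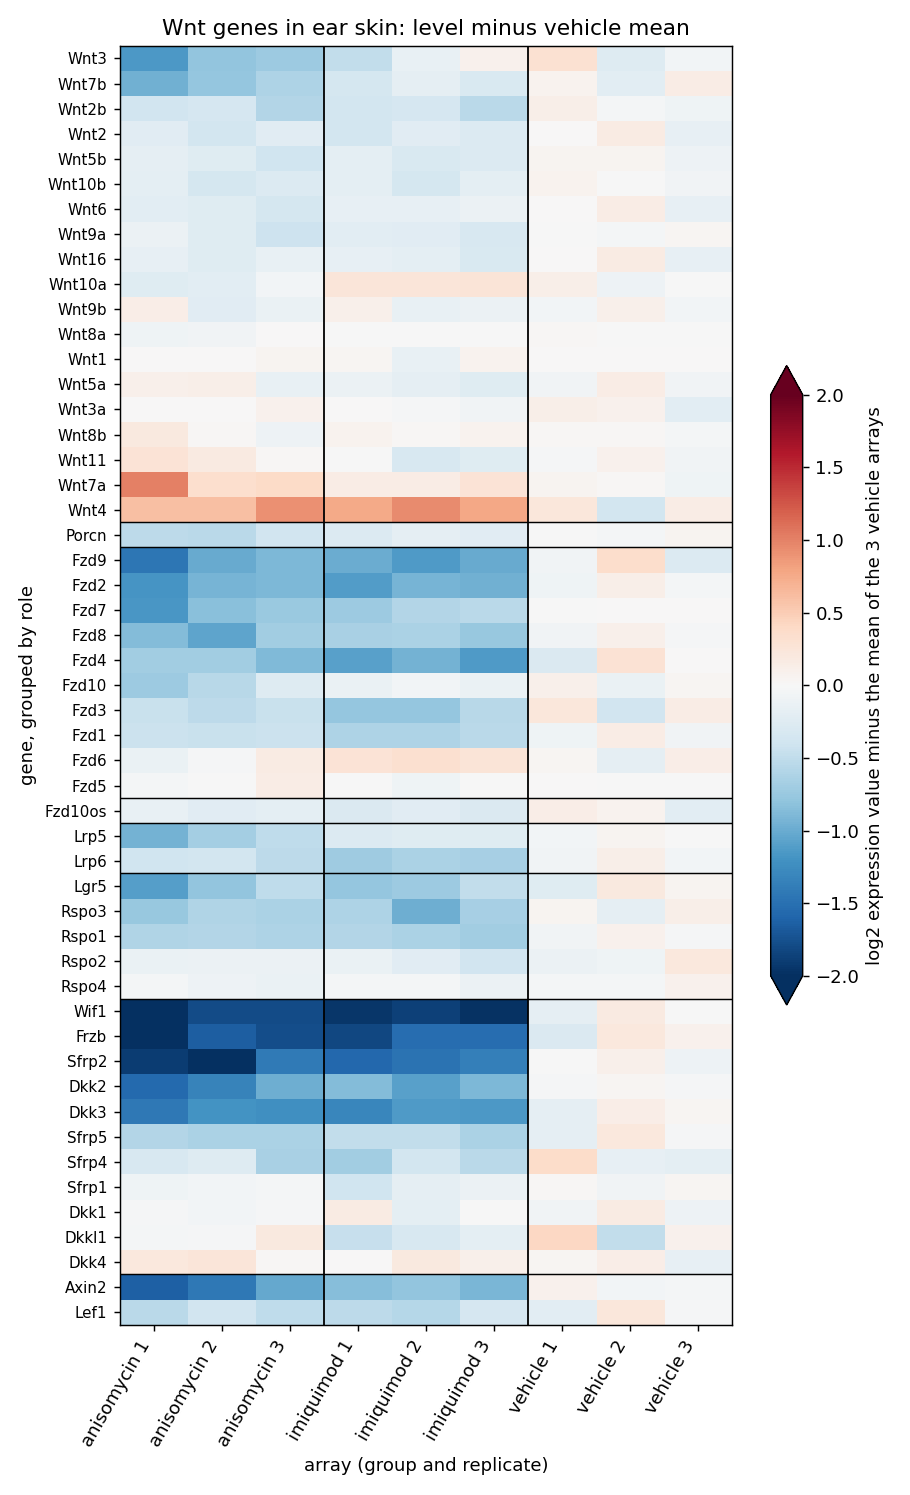
Heat map of the 51 genes (rows, grouped by role: ligands, Porcn, Frizzled receptors, Fzd10os, LRP co-receptors, Lgr5 and R-spondins, secreted inhibitors with Dkkl1, readouts) on the 9 arrays (columns). Colour gives the log2 expression value minus the mean of the 3 vehicle arrays, cut off at 2 in either direction, and the deepest falls are those of Wif1, Frzb and Sfrp2 while Wnt4 is above the vehicle mean on all 6 treated arrays.

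Array levels set a limit on the smaller values. Of the 51 genes, 21 had group means under 6.53, the median over all genes, in all 3 groups, and 9 of these 21 were called in none of the 3 comparisons. Signal over background was not tested, and changes of such dim genes can be understated. In whole-ear RNA, fewer cells of a type and less RNA per cell cannot be told apart. The values of marker lists for the cell types of the ear are given further on.

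The promoters of 4 genes are shown, and their part in the changes was not tested. They belong to Wnt4, which rose with both treatments, and Fzd7, a receptor that fell with both and carries a TCF/LEF core motif. The others are the promoters of Axin2, a widely used target gene, and Wif1, which had the largest fall with both. Each is the 250 bases before a RefSeq start site in the build GRCm38.p6, 5′ to 3′ on the strand of the gene, and capitals mark a match to the core.
Wnt4 (chr4:137277385-137277634, plus strand): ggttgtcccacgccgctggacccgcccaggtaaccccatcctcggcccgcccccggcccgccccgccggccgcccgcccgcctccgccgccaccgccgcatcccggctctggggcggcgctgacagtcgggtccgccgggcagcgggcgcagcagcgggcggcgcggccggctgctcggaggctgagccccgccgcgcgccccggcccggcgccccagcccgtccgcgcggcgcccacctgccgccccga
Axin2 (chr11:108920099-108920348, plus strand): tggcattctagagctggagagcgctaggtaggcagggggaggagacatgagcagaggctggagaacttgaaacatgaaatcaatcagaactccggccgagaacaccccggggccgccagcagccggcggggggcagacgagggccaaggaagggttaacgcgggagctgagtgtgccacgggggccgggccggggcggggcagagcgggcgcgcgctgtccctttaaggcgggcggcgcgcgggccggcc
Wif1 (chr10:121033754-121034003, plus strand): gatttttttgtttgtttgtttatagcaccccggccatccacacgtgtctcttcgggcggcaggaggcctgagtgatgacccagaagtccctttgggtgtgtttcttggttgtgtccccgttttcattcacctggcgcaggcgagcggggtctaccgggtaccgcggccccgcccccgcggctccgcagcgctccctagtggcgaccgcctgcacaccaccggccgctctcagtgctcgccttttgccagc
Fzd7 (chr1:59481897-59482146, plus strand): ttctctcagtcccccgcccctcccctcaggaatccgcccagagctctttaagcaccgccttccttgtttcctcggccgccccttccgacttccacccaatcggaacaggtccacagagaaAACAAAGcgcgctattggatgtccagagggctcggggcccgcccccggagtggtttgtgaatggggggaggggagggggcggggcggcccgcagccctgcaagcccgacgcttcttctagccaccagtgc

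The core was searched as CTTTG followed by 2 bases that are each A or T, on both strands, with overlaps allowed. The RefSeq promoter table held 32 of the 51 genes, with 38 start sites. A match lay in 5 of these 38 windows (13.2%), beside 14.8% of the 32851 windows in the table. Among the 17 genes that fell with both treatments and are in the table, 3 had a match, in Fzd7, in 1 of 4 windows of Lef1 and in 1 of 3 windows of Wnt5b. A match is a run of letters and not a site shown to be bound.

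Of the 19 ligands 8 fell and 2 rose with anisomycin, which is 52.6% called beside 45.6% of all genes. With imiquimod 5 fell and 2 rose, which is 36.8% called beside 42.7% of all genes, so the ligands' share was not above that of all genes. Their median log2 fold changes were -0.17 and -0.18. Wnt4, a ligand made in epidermis, measured 8.24, 8.24 and 8.55 in anisomycin ears, 8.39, 8.58 and 8.41 in imiquimod ears and 7.86, 7.27 and 7.79 in vehicle ears. All 6 treated arrays lay above all vehicle arrays. Wnt4 rose by 0.70 with anisomycin (SE 0.15, adjusted p = 0.0039) and by 0.82 with imiquimod (SE 0.15, adjusted p = 0.00177), which is 1.63-fold and 1.77-fold. A second, less bright probe set of Wnt4 gave smaller log2 fold changes of 0.28 with anisomycin and 0.40 with imiquimod (adjusted p over all deposited rows of 0.063 and 0.0169).

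Wnt7a, a ligand of epithelia, measured 6.22, 5.56 and 5.60 in anisomycin ears, 5.37, 5.37 and 5.49 in imiquimod ears and 5.27, 5.25 and 5.13 in vehicle ears. The first anisomycin array stood well above the other two, and the anisomycin and vehicle arrays did not overlap. Wnt7a rose with anisomycin by 0.58 (SE 0.15, adjusted p = 0.0113). Without anisomycin replicate 1 the change was 0.36 (adjusted p = 0.00249). With imiquimod it was 0.19 and not called (adjusted p = 0.356), though without anisomycin replicate 1, which enters that contrast through the variance, the adjusted p was 0.0307.

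Wnt3 and Wnt7b, which activate beta-catenin signalling in hair follicles, fell with anisomycin. Wnt3 measured 5.71, 6.05 and 6.13 in anisomycin ears, 6.36, 6.70 and 6.94 in imiquimod ears and 7.16, 6.59 and 6.80 in vehicle ears. The anisomycin arrays lay below all others, while the imiquimod and vehicle arrays overlapped. The changes were -0.89 with anisomycin (SE 0.18, adjusted p = 0.00299) and -0.18 with imiquimod (95% interval -0.60 to 0.23, adjusted p = 0.473). Wnt7b measured 6.47, 6.67 and 6.82 in anisomycin ears, 7.08, 7.25 and 7.14 in imiquimod ears and 7.51, 7.22 and 7.58 in vehicle ears. The groups were thus ordered anisomycin, imiquimod, vehicle, with an overlap between imiquimod and vehicle arrays. Its changes were -0.78 with anisomycin (SE 0.11, adjusted p = 0.000312) and -0.28 with imiquimod (SE 0.11, adjusted p = 0.0722, and 0.0142 without vehicle replicate 2).

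Wnt10a and Wnt10b are ligands of the hair follicle, and Wnt10a is needed for teeth and sweat glands. Wnt10a measured 7.89, 7.91 and 8.06 in anisomycin ears, 8.37, 8.37 and 8.39 in imiquimod ears and 8.24, 8.02 and 8.12 in vehicle ears. The imiquimod arrays lay above all others. Wnt10a rose with imiquimod by 0.25 (SE 0.07, adjusted p = 0.0156, and 0.05 without imiquimod replicate 3). After repeated quantile normalization that change was 0.15 and not called (0.076). With anisomycin it was at -0.17 and not called (adjusted p = 0.0699, and 0.0271 without anisomycin replicate 3 or 0.0251 without vehicle replicate 2). The fall was called at -0.27 after repeated quantile normalization (0.00499), -0.25 with stable genes (0.0077), -0.23 with cyclic loess (0.0107) and -0.24 with array weights (0.00456). Wnt10b measured 5.49, 5.34 and 5.41 in anisomycin ears, 5.49, 5.33 and 5.49 in imiquimod ears and 5.76, 5.67 and 5.61 in vehicle ears. Both treated groups lay below vehicle by a small margin, with changes of -0.27 with anisomycin (adjusted p = 0.00861) and -0.25 with imiquimod (adjusted p = 0.0149). The imiquimod call of Wnt10b ended without imiquimod replicate 2 (0.0607) or vehicle replicate 1 (0.0517), and with cyclic loess (-0.15, 0.0712).

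Wnt5a, the best known ligand that signals without beta-catenin, measured 6.98, 6.99 and 6.73 in anisomycin ears, 6.76, 6.70 and 6.63 in imiquimod ears and 6.81, 7.03 and 6.81 in vehicle ears. Anisomycin and vehicle arrays overlapped, and the changes were 0.02 with anisomycin (95% interval -0.18 to 0.22) and -0.18 with imiquimod (95% interval -0.38 to 0.01), neither of them called. Small falls with both treatments were called for Wnt2, Wnt2b, Wnt5b and Wnt9a, between -0.43 and -0.26, and for Wnt6 with anisomycin only, at -0.27 beside -0.14 with imiquimod (adjusted p = 0.168), a difference that was not called. Of these genes Wnt2b alone kept its calls in all 19 other settings. With anisomycin, Wnt2 lost its call without anisomycin replicate 2 (0.0947) or vehicle replicate 1 or 2 (0.0582 and 0.0703), Wnt6 without anisomycin replicate 3 (0.056) and Wnt9a without vehicle replicate 3 (0.0516). With imiquimod, Wnt2 lost it without imiquimod replicate 1 (0.0809) or vehicle replicate 1 or 2 (0.0516 and 0.0606), and Wnt9a without imiquimod replicate 3 (0.0748) or vehicle replicate 3 (0.0581). Wnt5b lost its imiquimod call without imiquimod replicate 2 or 3 (0.0709 and 0.0588) or vehicle replicate 1 or 2 (0.0601 and 0.0592). With cyclic loess the anisomycin change was -0.15 for Wnt9a (0.13), -0.17 for Wnt5b (0.0741), -0.17 for Wnt6 (0.0542) and -0.21 for Wnt2 (0.0557), none of them called. The imiquimod change was then -0.15 for Wnt9a (0.151), -0.16 for Wnt5b (0.111) and -0.20 for Wnt2 (0.0644), also not called. Wnt9a further lost its calls after repeated quantile normalization (0.0602 with anisomycin and 0.0743 with imiquimod) and with median centring (0.0571 and 0.0576). Wnt5b lost its imiquimod call with median centring (0.0502), and Wnt2 its anisomycin call with only 2 groups fitted (0.0554). The remaining ligands, Wnt1, Wnt3a, Wnt8a, Wnt8b, Wnt9b, Wnt11 and Wnt16, lay between -0.22 and 0.16 in both comparisons with vehicle and were not called there. The adjusted p fell under 0.05 with imiquimod for Wnt11 without imiquimod replicate 1 (0.0312), and without vehicle replicate 3 for Wnt6 (0.024) and Wnt16 (0.00887, and 0.0148 with anisomycin).

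Porcn, the enzyme that attaches the lipid Wnts need for secretion, measured 7.43, 7.41 and 7.57 in anisomycin ears, 7.67, 7.77 and 7.73 in imiquimod ears and 7.93, 7.90 and 8.01 in vehicle ears. The groups did not overlap in any pairing. Porcn fell with both treatments, at -0.48 with anisomycin (SE 0.06, adjusted p = 0.000147) and -0.23 with imiquimod (SE 0.06, adjusted p = 0.0128, and 0.052 without imiquimod replicate 1).

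**Figure D2:**
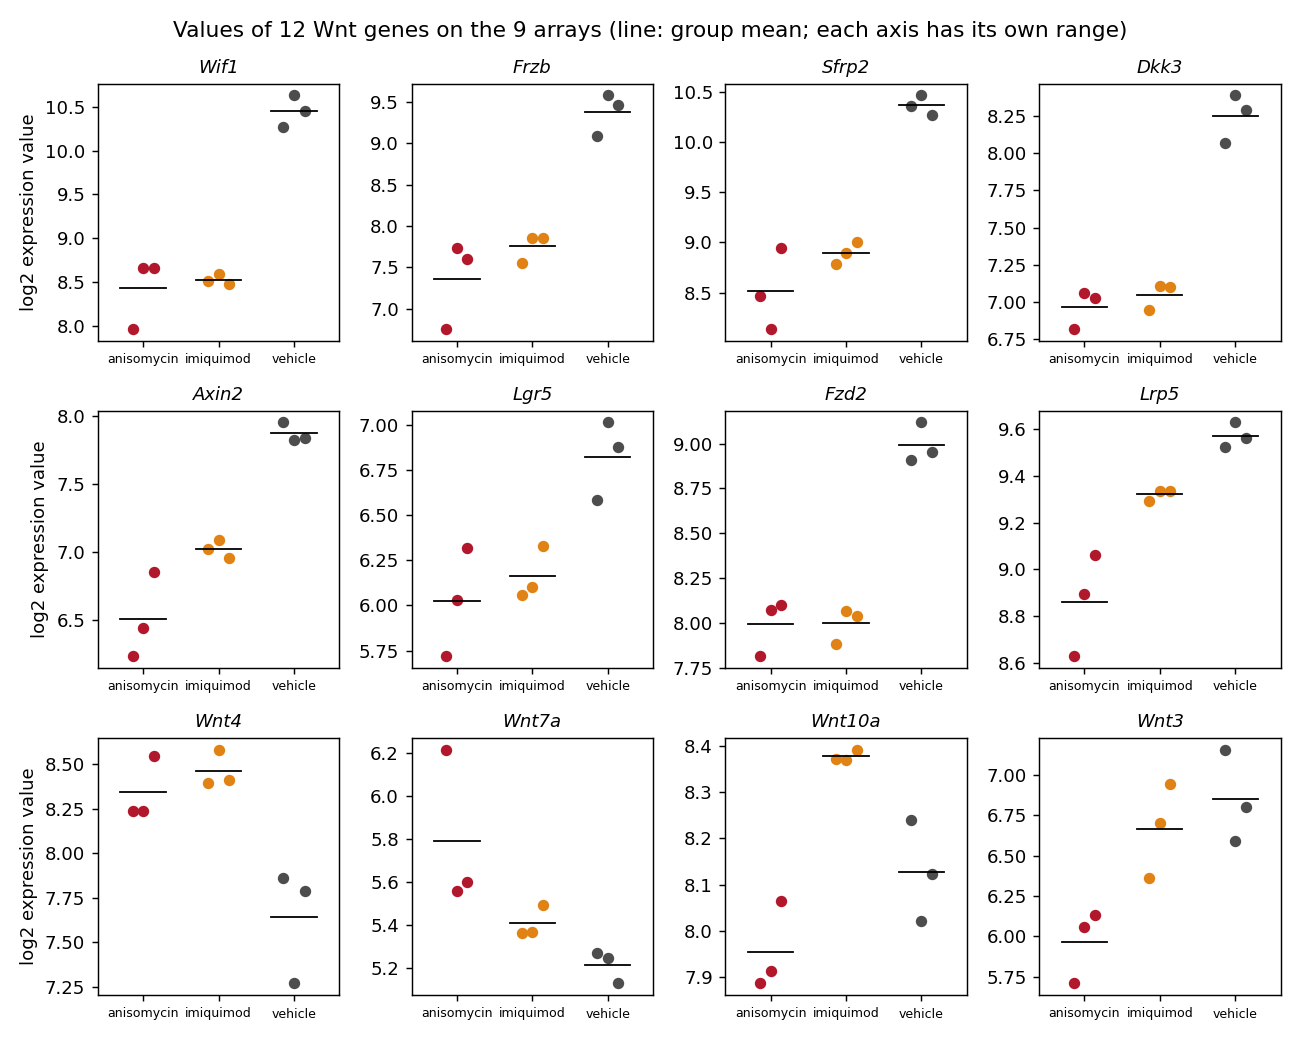
Log2 expression values of 12 of the genes on each array, with 1 point per array and a line at the mean of each group of 3; each panel has its own vertical range. Wif1, Frzb, Sfrp2, Dkk3, Axin2, Lgr5 and Fzd2 show treated arrays below all vehicle arrays, Wnt4 shows them above, and for Lrp5, Wnt3 and Wnt10a the anisomycin arrays lie below the imiquimod arrays.

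Among the Frizzled receptors 8 of 10 fell with anisomycin, where 23.3% of all genes fell. With imiquimod 7 fell and 1 rose, where 22.4% of all genes fell and 20.4% rose. The median changes of these receptors were -0.64 and -0.65. Fzd2 measured 7.81, 8.07 and 8.10 in anisomycin ears, 7.88, 8.07 and 8.04 in imiquimod ears and 8.91, 9.12 and 8.96 in vehicle ears. Both treated groups lay far below vehicle and at the same level, and Fzd2 fell with both (SE 0.09 each, adjusted p = 2.04e-05 with anisomycin and 2.77e-05 with imiquimod), with a 95% interval of the log2 fold change of -1.21 to -0.79 for each. Fzd9 measured 6.94, 7.39 and 7.50 in anisomycin ears, 7.41, 7.26 and 7.39 in imiquimod ears and 8.32, 8.75 and 8.11 in vehicle ears. It fell with both treatments, at -1.12 with anisomycin (SE 0.17, adjusted p = 0.000559) and -1.04 with imiquimod (SE 0.17, adjusted p = 0.00101), again with no overlap with vehicle.

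Fzd4, a receptor known from blood vessel growth in the retina, measured 6.62, 6.62 and 6.44 in anisomycin ears, 6.24, 6.38 and 6.19 in imiquimod ears and 7.04, 7.60 and 7.32 in vehicle ears. Its imiquimod arrays lay below its anisomycin arrays, and the changes were -0.76 with anisomycin (SE 0.13, adjusted p = 0.000899) and -1.05 with imiquimod (SE 0.13, adjusted p = 0.000146). Of 10 endothelial markers 60% were called with each treatment, beside 45.6% and 42.7% of all genes. With anisomycin 4 of the markers were lower and 2 higher, and with imiquimod 5 were lower and 1 higher. Their mean level was 7.33 to 7.68 in anisomycin ears, 7.03 to 7.12 in imiquimod ears and 7.30 to 7.70 in vehicle ears. Their part in the fall of Fzd4 was not tested. Fzd7 measured 7.33, 7.65 and 7.75 in anisomycin ears, 7.77, 7.91 and 7.96 in imiquimod ears and 8.48, 8.50 and 8.50 in vehicle ears. Here the anisomycin arrays were the lowest, and the changes were -0.92 with anisomycin (SE 0.10, adjusted p = 5.53e-05) and -0.62 with imiquimod (SE 0.10, adjusted p = 0.000784). Fzd8 measured 6.86, 6.68 and 7.02 in anisomycin ears, 7.08, 7.10 and 6.97 in imiquimod ears and 7.65, 7.83 and 7.70 in vehicle ears. It fell with both treatments, at -0.87 with anisomycin (SE 0.09, adjusted p = 3.96e-05) and -0.68 with imiquimod (SE 0.09, adjusted p = 0.00024), and the treated groups overlapped each other but not vehicle.

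Fzd1 measured 8.88, 8.86 and 8.88 in anisomycin ears, 8.69, 8.69 and 8.76 in imiquimod ears and 9.23, 9.45 and 9.24 in vehicle ears. The treated arrays lay below all vehicle arrays, and Fzd1 fell with both treatments, at -0.43 with anisomycin (SE 0.07, adjusted p = 0.000452) and -0.59 with imiquimod (SE 0.07, adjusted p = 8.29e-05). Fzd3, known from hair patterning and axon guidance, measured 5.65, 5.57 and 5.65 in anisomycin ears, 5.32, 5.32 and 5.54 in imiquimod ears and 6.32, 5.71 and 6.24 in vehicle ears. Vehicle replicate 2 stood near the treated arrays. Fzd3 fell with both treatments, at -0.47 with anisomycin (adjusted p = 0.023) and -0.70 with imiquimod (adjusted p = 0.00318). The first of these calls ended without anisomycin replicate 2 (0.0736), vehicle replicate 1 (0.0831) or vehicle replicate 3 (0.084), with cyclic loess (0.0708) and with only 2 groups fitted (0.0509).

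Fzd10 measured 6.69, 6.86 and 7.15 in anisomycin ears, 7.28, 7.36 and 7.28 in imiquimod ears and 7.52, 7.28 and 7.46 in vehicle ears. It fell with anisomycin by 0.52 (SE 0.11, adjusted p = 0.00383), while with imiquimod it was at -0.11 and not called (95% interval -0.36 to 0.14). Whether its probes and those of the opposite-strand transcript Fzd10os share signal was not tested. Fzd10os was at -0.19 with anisomycin (adjusted p = 0.0899, and 0.00247 without vehicle replicate 3) and at -0.27 with imiquimod (adjusted p = 0.0267). The imiquimod call ended without any 1 imiquimod array or without vehicle replicate 1 or 2, at an adjusted p of up to 0.0866. It also ended with cyclic loess (-0.16, 0.121), repeated quantile normalization (0.0533), median centring (0.0504) and only 2 groups fitted (0.0568). Fzd6, which takes part with Fzd3 in orienting hairs, went the other way with imiquimod. It measured 8.36, 8.47 and 8.66 in anisomycin ears, 8.76, 8.82 and 8.76 in imiquimod ears and 8.53, 8.32 and 8.63 in vehicle ears. Fzd6 rose with imiquimod by 0.29 (SE 0.09, adjusted p = 0.0355) and was at 0.00 with anisomycin. That rise lost its call without any 1 imiquimod array, anisomycin replicate 2 or vehicle replicate 1 or 2, at up to 0.109. It also lost it after repeated quantile normalization (0.16, adjusted p = 0.157), cyclic loess (0.17, adjusted p = 0.114) and centring on stable genes (0.21, adjusted p = 0.0641). Fzd5 was at 0.04 with anisomycin and -0.03 with imiquimod and was not called.

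The co-receptors Lrp5 and Lrp6 both fell with anisomycin. With imiquimod Lrp6 fell, and the call of Lrp5 depended on the setting. Lrp5 measured 8.63, 8.89 and 9.06 in anisomycin ears, 9.29, 9.33 and 9.34 in imiquimod ears and 9.52, 9.63 and 9.56 in vehicle ears. None of the 3 groups overlapped. Its changes were -0.71 with anisomycin (SE 0.10, adjusted p = 0.000218) and -0.25 with imiquimod (SE 0.10, adjusted p = 0.0611). The imiquimod change of Lrp5 passed the threshold in 9 of 19 other settings. It was -0.46 after repeated quantile normalization (0.00333), -0.44 with cyclic loess (0.00495), -0.32 with stable genes (0.0179) and -0.23 with array weights (0.034). At an unchanged -0.25 it passed with only 2 groups fitted (0.00622), the replicate block (0.0474), the dimmest genes left out (0.0491) and without anisomycin replicate 1 (0.00856) or 3 (0.022). Lrp6 measured 9.33, 9.36 and 9.21 in anisomycin ears, 9.01, 9.10 and 9.06 in imiquimod ears and 9.65, 9.84 and 9.68 in vehicle ears. Its groups did not overlap either, but in the other order, with changes of -0.43 with anisomycin (SE 0.07, adjusted p = 0.000556) and -0.67 with imiquimod (SE 0.07, adjusted p = 4.47e-05). After repeated quantile normalization the anisomycin change of Lrp6 was -0.66.

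Of the R-spondins and their receptor Lgr5, 3 of 5 fell with each treatment, and these were the same genes. That is 60% called with each, all lower, beside 45.6% and 42.7% of all genes called and 23.3% and 22.4% lower. Rspo1 measured 6.97, 6.97 and 6.95 in anisomycin ears, 6.97, 6.93 and 6.87 in imiquimod ears and 7.49, 7.66 and 7.55 in vehicle ears. The treated arrays were nearly level, and Rspo1 fell with both treatments, at -0.60 with anisomycin (SE 0.06, adjusted p = 2.13e-05) and -0.64 with imiquimod (SE 0.06, adjusted p = 2.04e-05). Rspo3, an R-spondin made by stromal cells, measured 5.32, 5.48 and 5.45 in anisomycin ears, 5.46, 5.11 and 5.42 in imiquimod ears and 6.15, 5.91 and 6.20 in vehicle ears. It fell with both treatments, at -0.67 with anisomycin (SE 0.11, adjusted p = 0.000674) and -0.75 with imiquimod (SE 0.11, adjusted p = 0.000384). Lgr5, a marker of hair follicle stem cells, measured 5.72, 6.03 and 6.32 in anisomycin ears, 6.06, 6.10 and 6.33 in imiquimod ears and 6.58, 7.01 and 6.88 in vehicle ears. All treated arrays lay below all vehicle arrays, and Lgr5 fell with both treatments, at -0.80 with anisomycin (SE 0.16, adjusted p = 0.0023) and -0.66 with imiquimod (SE 0.16, adjusted p = 0.00752). Rspo4 was at -0.09 and -0.07 and Rspo2 at -0.12 and -0.25 with anisomycin and imiquimod, not called. Rspo2 passed the threshold with imiquimod without imiquimod replicate 1 (0.0463) or vehicle replicate 1 (0.0356).

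The secreted inhibitors gave the largest changes. With Dkkl1 counted, 6 of 11 fell with anisomycin and 8 of 11 with imiquimod, with median changes of -0.62 and -0.54. That is 54.5% and 72.7% called, all lower, beside 45.6% and 42.7% of all genes called and 23.3% and 22.4% lower. Wif1, which binds Wnts in the extracellular space, measured 7.96, 8.66 and 8.66 in anisomycin ears, 8.51, 8.59 and 8.47 in imiquimod ears and 10.27, 10.63 and 10.45 in vehicle ears. The highest treated array was well below the lowest vehicle array. Wif1 fell with both treatments, at -2.02 with anisomycin (SE 0.17, adjusted p = 1.41e-05) and -1.93 with imiquimod (SE 0.17, adjusted p = 2.56e-05), so that vehicle ears held 4.07 times the signal of anisomycin ears and 3.80 times that of imiquimod ears.

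Frzb, an sFRP family member first known from cartilage, measured 6.76, 7.73 and 7.60 in anisomycin ears, 7.56, 7.86 and 7.85 in imiquimod ears and 9.09, 9.58 and 9.46 in vehicle ears. Anisomycin replicate 1 was the lowest array. Frzb fell with both treatments, at -2.01 with anisomycin (SE 0.24, adjusted p = 9.37e-05) and -1.62 with imiquimod (SE 0.24, adjusted p = 0.000442). Sfrp2, a secreted Frizzled-related protein made by dermal fibroblasts, measured 8.47, 8.14 and 8.95 in anisomycin ears, 8.79, 8.89 and 9.00 in imiquimod ears and 10.36, 10.46 and 10.27 in vehicle ears. All treated arrays lay more than a unit below vehicle, and Sfrp2 fell with both treatments, at -1.85 with anisomycin (SE 0.17, adjusted p = 2.03e-05) and -1.47 with imiquimod (SE 0.17, adjusted p = 0.000103).

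Dkk3 and Dkk2 belong to the Dickkopf family, of which Dkk2 binds LRP co-receptors and Dkk3 is the divergent member. Dkk3 measured 6.82, 7.06 and 7.03 in anisomycin ears, 6.95, 7.11 and 7.10 in imiquimod ears and 8.07, 8.39 and 8.29 in vehicle ears. Dkk3 fell with both treatments, at -1.28 with anisomycin (SE 0.10, adjusted p = 6.1e-06) and -1.20 with imiquimod (SE 0.10, adjusted p = 1.32e-05), to about the same level. Dkk2 measured 6.04, 6.24 and 6.61 in anisomycin ears, 6.72, 6.49 and 6.68 in imiquimod ears and 7.57, 7.62 and 7.57 in vehicle ears. The vehicle arrays were close together and above all others, and Dkk2 fell with both treatments, at -1.29 with anisomycin (SE 0.13, adjusted p = 3.28e-05) and -0.95 with imiquimod (SE 0.13, adjusted p = 0.000256).

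Sfrp5 measured 5.80, 5.75 and 5.76 in anisomycin ears, 5.90, 5.90 and 5.75 in imiquimod ears and 6.21, 6.60 and 6.36 in vehicle ears. It fell with both treatments, at -0.62 with anisomycin (SE 0.09, adjusted p = 0.000414) and -0.54 with imiquimod (SE 0.09, adjusted p = 0.00111). Sfrp4 was dim, at 4.45, 4.51 and 4.13 in anisomycin ears, 4.08, 4.40 and 4.23 in imiquimod ears and 5.13, 4.60 and 4.58 in vehicle ears. Its fall was called with imiquimod, at -0.53 (adjusted p = 0.0235), and not with anisomycin, at -0.41 (adjusted p = 0.0667). Without vehicle replicate 1, the highest array, the imiquimod change of Sfrp4 was -0.35 (adjusted p = 0.0584), and the call also ended without imiquimod replicate 1 (0.0873) or 3 (0.063). Sfrp1, a widely expressed inhibitor, was at -0.06 with anisomycin and -0.23 with imiquimod (adjusted p = 0.032), where it fell. Without imiquimod replicate 1 its change was -0.15 (0.0901), and the call also ended without anisomycin replicate 2 (0.0501) or vehicle replicate 1 or 3 (0.0833 and 0.0908), with median centring (0.0632) and with only 2 groups fitted (0.0655). After repeated quantile normalization it was -0.36 (0.00105). Dkk1, the classical Dickkopf inhibitor, was at -0.03 and -0.01, Dkk4 at 0.16 and 0.10, and Dkkl1 at 0.05 and -0.32 with anisomycin and imiquimod, none of them called. Dkkl1 passed the threshold with imiquimod without vehicle replicate 2 (0.00657).

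**Figure D3:**
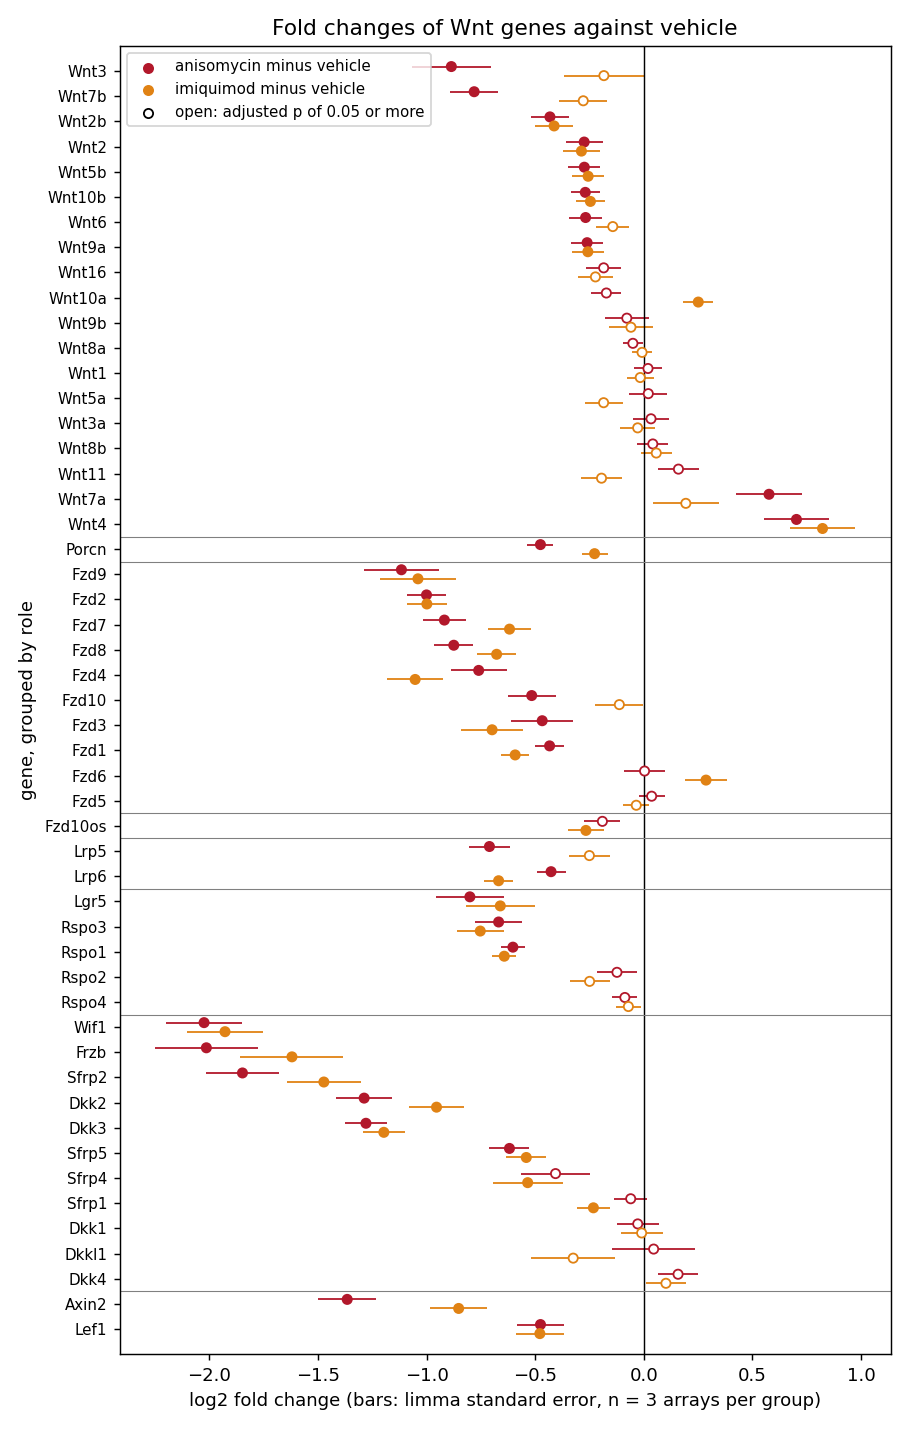
Log2 fold changes against vehicle of the 51 genes, grouped by role, for anisomycin (red, upper point of each pair) and imiquimod (orange, lower point), with bars for limma's standard error from 3 arrays per group. Filled points passed an adjusted p of 0.05; the secreted inhibitors reach -2.02 while the ligands lie between -0.89 and 0.82.

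Axin2 and Lef1 are intracellular genes that respond to beta-catenin in many tissues. Axin2, a scaffold that destroys beta-catenin and so feeds back on the signal, measured 6.23, 6.44 and 6.85 in anisomycin ears, 7.02, 7.09 and 6.95 in imiquimod ears and 7.95, 7.82 and 7.84 in vehicle ears. The 3 groups did not overlap. Axin2 fell with both treatments, at -1.37 with anisomycin (SE 0.13, adjusted p = 2.87e-05) and -0.85 with imiquimod (SE 0.13, adjusted p = 0.000636). Lef1, a transcription factor of the pathway that is also made by T cells and hair precursors, measured 5.58, 5.73 and 5.60 in anisomycin ears, 5.58, 5.54 and 5.78 in imiquimod ears and 5.91, 6.34 and 6.08 in vehicle ears. It fell by 0.48 with each treatment (SE 0.11, adjusted p = 0.00557 with anisomycin and 0.00602 with imiquimod). Of 11 measured T cell markers, 3 fell and 2 rose with anisomycin and 4 fell and 1 rose with imiquimod. That is 45.5% called with each, beside 45.6% and 42.7% of all genes, with median changes of -0.02 and -0.09. Their mean level was 5.46 to 5.53 in anisomycin ears, 5.39 to 5.51 in imiquimod ears and 5.50 to 5.70 in vehicle ears. Their part in the fall of Lef1 was not tested.

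The treatments were also set against each other. For anisomycin against imiquimod 9 of the 51 genes were called, 2 higher and 7 lower, where 20.4% of all genes were called, 10.8% higher and 9.59% lower. The share of the 51, 17.6%, was thus not above that of all genes. Wnt11 (0.35, adjusted p = 0.0274) and Lrp6 (0.24, adjusted p = 0.0319) were higher with anisomycin. Lower with anisomycin were Wnt3 (-0.70, adjusted p = 0.0253), Axin2 (-0.51, adjusted p = 0.0247), Wnt7b (-0.50, adjusted p = 0.013), Lrp5 (-0.46, adjusted p = 0.00972), Wnt10a (-0.42, adjusted p = 0.00332), Fzd10 (-0.40, adjusted p = 0.0315) and Porcn (-0.25, adjusted p = 0.0185). Lrp5 and Wnt10a kept their call in all 19 other settings, including without any 1 array. The other 7 lost it without some of the treated arrays. Without imiquimod replicate 2 the adjusted p was 0.103 for Wnt11, 0.0655 for Lrp6, 0.0805 for Wnt3, 0.0866 for Axin2, 0.0545 for Wnt7b, 0.104 for Fzd10 and 0.0736 for Porcn. Without anisomycin replicate 1 it was 0.098 for Wnt11, 0.099 for Lrp6, 0.0914 for Wnt3, 0.0674 for Axin2, 0.0971 for Fzd10 and 0.0647 for Porcn. Without anisomycin replicate 2 it was 0.0859 for Wnt11, 0.114 for Lrp6, 0.0597 for Wnt3, 0.0865 for Axin2, 0.1 for Fzd10 and 0.0735 for Porcn. Without imiquimod replicate 3 it was 0.0933 for Wnt11, 0.0868 for Lrp6, 0.0906 for Wnt3, 0.0567 for Axin2, 0.079 for Fzd10 and 0.0613 for Porcn. Without imiquimod replicate 1 it was 0.109 for Lrp6, 0.0729 for Axin2 and 0.0789 for Fzd10. Lrp6 also lost its call after repeated quantile normalization (0.0913), with stable genes (0.0591) and with cyclic loess (0.0652). With only 2 groups fitted the adjusted p was 0.0556 for Axin2, 0.0507 for Fzd10 and 0.0503 for Wnt11. Apcdd1, a gene of the pathway outside the 51, was lower with anisomycin than with imiquimod (-0.47, adjusted p = 0.0467). For Apcdd1 the adjusted p was 0.0897 with only 2 groups fitted. Without anisomycin replicate 1 its difference was -0.29 (0.0643). The anisomycin and imiquimod arrays did not overlap for 19 of the 51, not above the share of all genes (39.3%), among them 10 that were not called. Of these Dkkl1, Fzd1, Fzd10os, Fzd3, Fzd4, Sfrp1 and Wnt7a had the anisomycin arrays above, by 0.08 to 0.38, and Fzd6, Fzd7 and Wnt6 had them below, by -0.30 to -0.13. Wif1 (-0.10, 95% interval -0.49 to 0.30), Dkk3 (-0.08, -0.30 to 0.13) and Fzd2 (0.00, -0.21 to 0.21) were not called either.

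The rest of the pathway was covered by 74 measured genes in 3 lists. These lists were drawn up from general knowledge, with earlier results of these data known. With anisomycin 57 of the 74 were called, 41 lower and 16 higher, where 45.6% of all genes were called. With imiquimod 48 were called, 36 lower and 12 higher, where 42.7% of all genes were. Among genes of secretion, other receptors, receptor turnover and planar polarity, 20 of 26 fell and 3 rose with anisomycin and 16 fell and 2 rose with imiquimod. That is 88.5% and 69.2% called, and the median changes of that list were -0.61 and -0.42. The largest falls with anisomycin were those of Lrp4 at -2.15 (SE 0.18), a receptor that binds the inhibitors Sost and Sostdc1, Lgr6 at -1.84 (SE 0.17), an R-spondin receptor of skin stem cells, and Gpc3 at -1.71 (SE 0.20), a cell surface proteoglycan. With imiquimod these stood at -1.08, -0.88 and -1.25, and all 3 were called.

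Genes of signal transduction inside the cell were more evenly split, with 10 of 27 lower and 9 higher with anisomycin and 10 lower and 7 higher with imiquimod. That is 70.4% and 63% called, beside 45.6% and 42.7% of all genes. The casein kinase gene Csnk1e was at 0.92 with anisomycin (SE 0.06, adjusted p = 2.07e-06) and 0.20 with imiquimod (adjusted p = 0.0195). The imiquimod call of Csnk1e ended without imiquimod replicate 2 (0.0636) or 3 (0.064), after repeated quantile normalization (0.548), with cyclic loess (0.983) and with stable genes (0.0793). The co-repressor Tle3 rose by 0.44 with anisomycin and by 0.56 with imiquimod. The beta-catenin gene itself, Ctnnb1, averaged 10.49 ± 0.02 in anisomycin ears, 10.48 ± 0.02 in imiquimod ears and 10.54 ± 0.02 in vehicle ears (SD, n = 3 each), with changes of -0.06 with anisomycin and -0.06 with imiquimod that were not called (adjusted p = 0.307 and 0.289). The size of the Ctnnb1 change depended on the scaling. After repeated quantile normalization it was -0.35 with each treatment (0.000262 and 0.00033), with cyclic loess -0.31 and -0.35 (0.00142 and 0.000851) and with stable genes -0.14 and -0.14 (0.0301 and 0.0373), all called as falls.

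In the list of targets, feedback genes and other inhibitors, 14 of 24 fell and 4 rose with anisomycin and 12 fell and 3 rose with imiquimod. That is 75% and 62.5% called, beside 45.6% and 42.7% of all genes. The feedback genes did not all move. Apcdd1, a membrane inhibitor induced by the pathway, averaged 7.49 ± 0.34 in anisomycin ears, 7.96 ± 0.10 in imiquimod ears and 9.08 ± 0.08 in vehicle ears (SD, n = 3 each) and fell with both treatments, at -1.60 with anisomycin and -1.12 with imiquimod (adjusted p = 1.87e-05 and 0.000205). Nkd1 fell with both treatments, at -0.69 with anisomycin and -0.63 with imiquimod, and so did its relative Nkd2, at -1.25 and -1.51. Notum, a secreted enzyme that strips the lipid from Wnts, was at -0.37 with anisomycin (adjusted p = 0.00966) and -0.20 with imiquimod (adjusted p = 0.124, and 0.0231 without vehicle replicate 3 or 0.0475 with stable genes). Sp5 was at -0.06 and -0.01, not called. Cd44, a hyaluronan receptor also made by leukocytes and wounded keratinocytes, rose by 2.20 with anisomycin (SE 0.10) and 1.81 with imiquimod (SE 0.10). Prdm1, a repressor with roles in sebaceous gland, epidermis and lymphocytes, rose by 2.03 with anisomycin and 1.02 with imiquimod (SE 0.16 each). In the receptor and polarity list, Daam2, a formin, fell with both treatments, at -1.17 with anisomycin and -1.19 with imiquimod.

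Between the treatments 28 of the 74 were called, 13 higher and 15 lower with anisomycin, where 20.4% of all genes were called. Prdm1 was at 1.01, Prickle2, a planar polarity gene, at 1.01 and Csnk1e at 0.72. Prickle2 rose by 0.75 with anisomycin and fell by 0.26 with imiquimod (adjusted p = 0.0124, and 0.0508 without imiquimod replicate 1). Lowest were Sostdc1, a Wnt and BMP inhibitor, at -1.12, Lrp4 at -1.07 and the cadherin Celsr2 at -0.98. Sostdc1 fell with anisomycin by 1.64 and was at -0.52 with imiquimod (adjusted p = 0.0707), where it passed the threshold in 9 of 19 other settings, among them without anisomycin replicate 3 (0.0324) or imiquimod replicate 3 (0.0424). Celsr2 fell with anisomycin by 0.60, or by 0.39 without anisomycin replicate 1 (0.00493), and was at 0.37 with imiquimod (adjusted p = 0.0823, and 0.00363 or 0.0234 without anisomycin replicate 1 or 3).

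**Figure D4:**
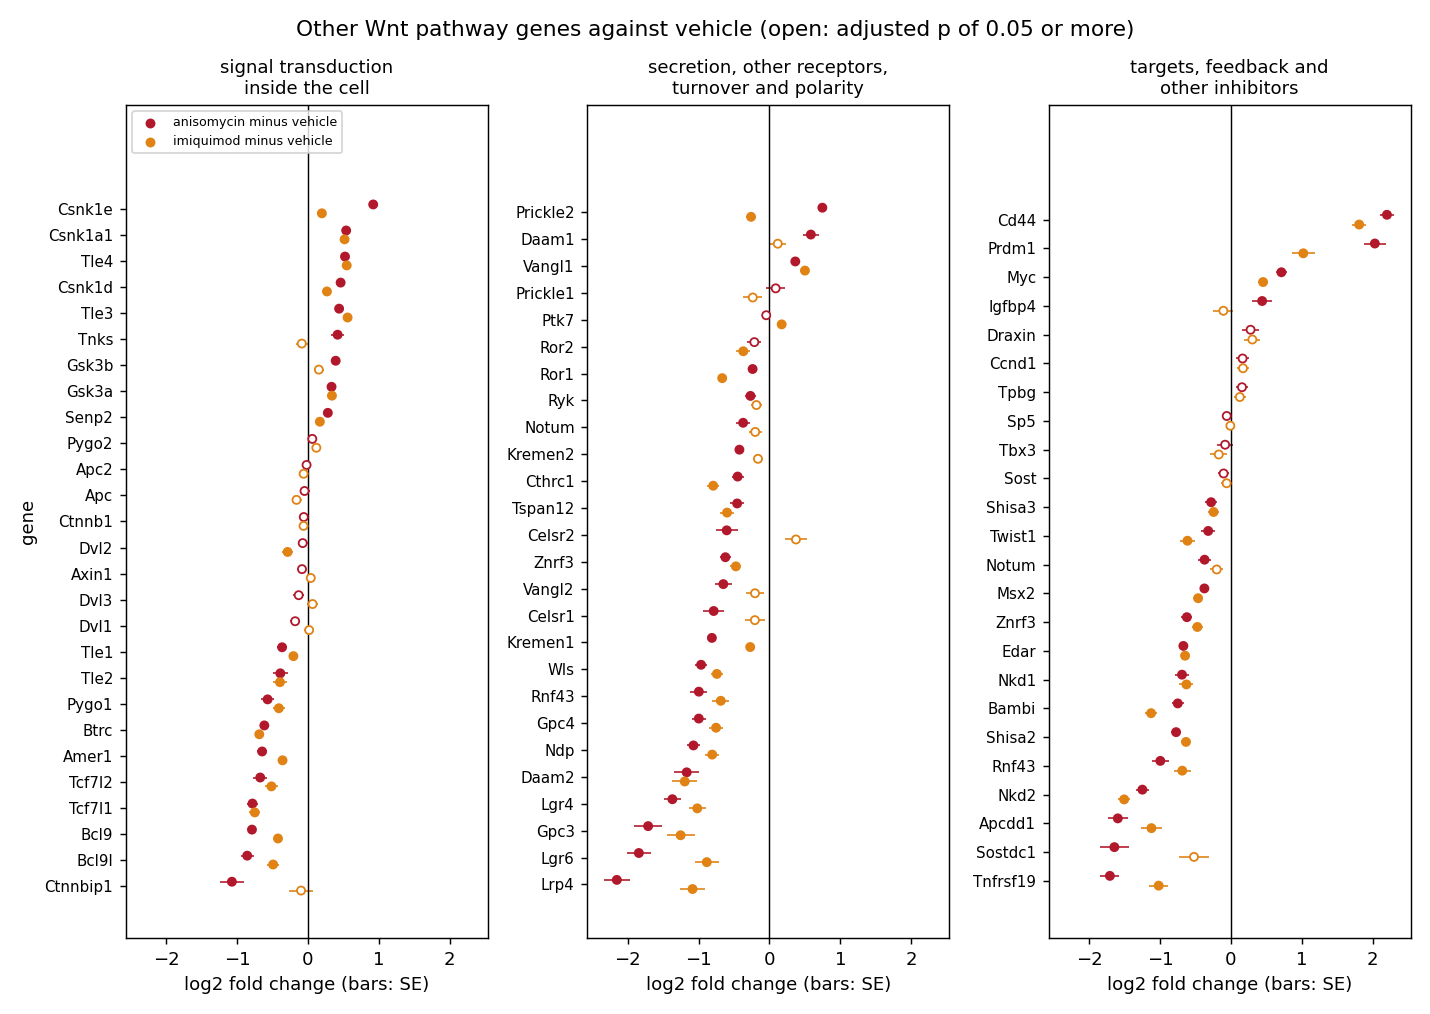
Log2 fold changes against vehicle of the 74 other Wnt pathway genes in 3 panels, for anisomycin (red) and imiquimod (orange), with standard errors as bars; genes are ordered by the anisomycin change and 3 of them stand in 2 panels. Filled points passed an adjusted p of 0.05; most of the receptor and turnover genes lie left of 0, Lrp4 at -2.15 with anisomycin, while Cd44 and Prdm1 lie furthest right.

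Markers of several tissues of the ear moved in the same arrays. Of all genes, 22.3% were called higher and 23.3% lower with anisomycin, and 20.4% higher and 22.4% lower with imiquimod. Mean levels of the fibroblast list of 11 genes were 9.19 to 9.27 in anisomycin ears, 9.01 to 9.14 in imiquimod ears and 9.94 to 10.09 in vehicle ears, with 9 lower and 1 higher with anisomycin and 10 lower with imiquimod. Cartilage markers averaged 6.92 to 7.11 in anisomycin ears, 6.94 to 6.99 in imiquimod ears and 7.71 to 8.04 in vehicle ears, with 8 of 11 lower with each treatment and 1 higher with anisomycin. All 12 skeletal muscle markers were called lower with each treatment, at median changes of -1.85 with anisomycin and -1.82 with imiquimod. Of 9 adipocyte markers 8 were called lower with each, and their mean level was 6.66 to 6.87 in anisomycin ears, 7.03 to 7.13 in imiquimod ears and 7.81 to 8.35 in vehicle ears. Of 8 melanocyte and Schwann cell markers 5 were called lower with anisomycin (62.5%) and 6 with imiquimod (75%). Of 18 hair follicle and dermal papilla markers, 10 were called lower and 4 higher with anisomycin, and 5 lower and 3 higher with imiquimod. That is 77.8% and 44.4% called, beside 45.6% and 42.7% of all genes, so with imiquimod the share was near that of all genes. Of 8 basal keratinocyte markers 4 were called higher and 2 lower with each treatment, which is 75% called. Of 12 neutrophil and macrophage markers 11 were called higher with each, and the list had median changes of 3.17 and 2.72. The falls of Wif1, Frzb, Sfrp2, Dkk2, Dkk3, 7 Frizzled genes and Lgr5 with both treatments go with these shifts, and the part of the shifts in them was not tested.

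**Figure D5:**
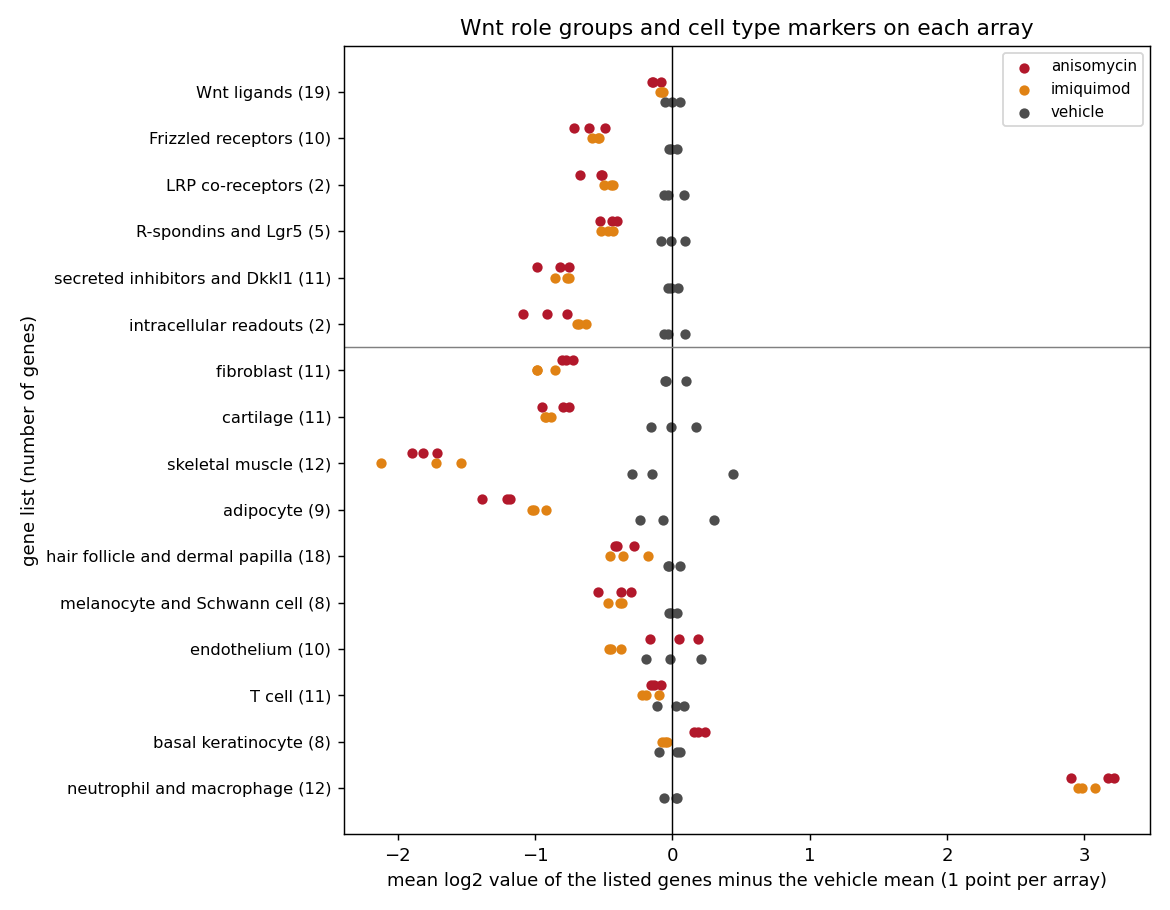
Mean log2 value of each gene list on each array minus the mean of the vehicle arrays, with 1 point per array, for the Wnt role groups (above the line) and the cell type marker lists (below it). Secreted inhibitors, fibroblast and cartilage markers lie below vehicle on all 6 treated arrays, muscle markers lower still, and neutrophil and macrophage markers rise by about 3 units.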

How the data were processed

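The authors deposited 1 table of log2 expression values made with RMA, per the submitters' processing notes. RMA is a method that corrects background, normalizes by quantiles and summarises probes. The log2 scale was judged from the values, and the version of RMA, the genome build of the table and whether all arrays were normalized together are not given in the sources used here. Its 35556 rows include 21789 with 1 gene symbol in the platform annotation. All 51 members matched RefSeq by Entrez identifier with the same symbol. Where a symbol had several probe sets the brightest over the 9 arrays stood for it. This gave 19938 genes, and dim genes stayed in. Wnt4 alone among the members has several probe sets.

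Group means were fitted to all 9 arrays by limma 3.58.1 (R 4.3.3) with 6 residual and 3.16 prior degrees of freedom, two-sided tests and Benjamini-Hochberg adjustment over all genes at 0.05. The fit was tested on simulated data in which few genes changed, so that test does not cover changes as broad as those in these arrays. With 3 arrays per group, which limits precision, an exact permutation test has a smallest p of 0.1, and limma's moderated variances carry the calls. Members and gene lists were chosen with earlier results of these data known. Array values are printed for members called with a log2 fold change of at least 0.5 in size, and for Axin2, Lef1, Lgr5, Porcn, Wnt5a, Wnt10a and Wnt10b in every case, and also for Fzd6. Of the other pathway genes, the 3 largest rises and falls per comparison are named, with Ctnnb1, Apcdd1, Nkd1, Notum and Sp5. Alternatives were a trended robust prior, leaving out the dimmest 30% of genes, other scalings, the mean of probe sets, array weights, the replicate block, fitting only 2 groups and leaving out each array. The repeated quantile normalization and the other scalings were run on the 19938 genes and not on all deposited rows, so they do not repeat the step within RMA.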

Additional observations from a re-analysis of the deposited data

How the results depend on the processing

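All 51 genes were refitted under 19 settings for 3 comparisons. No called value changed sign, and 50 of the 72 calls held in every setting. Calls that ended are named above with each gene. With stable genes some changes above that missed the threshold passed it, all as falls: with anisomycin Fzd10os (-0.27, adjusted p = 0.0264), Wnt16 (-0.27, adjusted p = 0.0325), Wnt8a (-0.13, adjusted p = 0.0421), Rspo4 (-0.17, adjusted p = 0.0394) and Sfrp4 (-0.49, adjusted p = 0.026), and with imiquimod Wnt7b (-0.35, adjusted p = 0.0166), Wnt16 (-0.30, adjusted p = 0.0221) and Rspo2 (-0.32, adjusted p = 0.0144). Sfrp1 fell with anisomycin after repeated quantile normalization (-0.21, adjusted p = 0.0183). With array weights Dkk4 was called higher with anisomycin (adjusted p = 0.021), and Fzd10os (0.0268) and Wnt16 (0.0281) were called lower. With cyclic loess Wnt11 was called higher with anisomycin (0.27, adjusted p = 0.0314) and Dkkl1 lower with imiquimod (-0.50, adjusted p = 0.0351), and with median centring Celsr2 was called higher with imiquimod (0.41, adjusted p = 0.0475). Counts of the 51 that fell moved by under 1.5 times in both comparisons with vehicle, from 26 with cyclic loess to 36 with centring on stable genes for anisomycin, and from 24 with centring on medians to 32 with array weights or stable genes for imiquimod. The count that rose with imiquimod was 1 after repeated quantile normalization, against 3. Leaving out single arrays gave 2 to 2 rises and 28 to 30 falls with anisomycin, 1 to 4 rises and 23 to 29 falls with imiquimod, 54 to 57 and 43 to 50 other pathway genes, and 7921 to 8725 and 7265 to 8611 genes in all.

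Anisomycin against imiquimod depended most on the settings. The count higher was 1 after repeated quantile normalization, centring on stable genes or cyclic loess, and 4 with only 2 groups fitted, against 2. Array weights gave 7 higher, 12 lower, 47 other pathway genes and 8557 genes in all, against 2, 7, 28 and 4059. Leaving out single arrays gave 0 to 5 higher, 2 to 12 lower, 16 to 35 other pathway genes and 2523 to 4766 in all, where fewer arrays remain. The cause of the other shifts was not tested. Same-numbered arrays had correlations of -0.201 to 0.196 (median -0.018), and differently numbered arrays of -0.238 to 0.254 (median -0.0125). The labels do not say what the numbers mean. With 3 arrays per group these correlations cannot settle whether the numbers pair the samples. With the replicate block 2 rose and 30 fell with anisomycin, 3 rose and 29 fell with imiquimod, 2 were higher and 8 lower in anisomycin against imiquimod, and 8924, 8280 and 3734 genes were called in all. Signal over background, which was not tested, limits the dim genes.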

Other observations

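Hair follicle markers moved in both directions, and those named here were chosen after their values were seen. Msx2, which fell with both treatments (-0.37 with anisomycin and -0.46 with imiquimod), is counted here and also among the Wnt targets. Of the 18 follicle and papilla markers, 10 were lower and 4 higher with anisomycin, and 5 lower and 3 higher with imiquimod. That is 77.8% and 44.4% called, beside 45.6% and 42.7% of all genes. With imiquimod the share was thus near that of all genes. Krt15, a keratin of the follicle bulge and basal layer, fell with both treatments, at -2.46 with anisomycin and -2.54 with imiquimod on the log2 scale (SE 0.21 each), and Corin, a protease of the dermal papilla, was at -1.91 and -1.69 (SE 0.18 each), also lower with both. Krt25, a keratin of the inner root sheath, was at -1.80 with anisomycin and -0.94 with imiquimod (SE 0.28, limma adjusted p = 0.0565 for the difference). Krt75, a keratin of the companion layer, rose by 1.44 and 0.80 (SE 0.10), where the largest rise among these markers with anisomycin was 1.46. Sox9, a transcription factor of follicle stem cells and cartilage, was counted with the cartilage markers, of which 8 of 11 fell with each treatment. It was at 0.96 with anisomycin and -0.72 with imiquimod (SE 0.13), both past the threshold, a difference of 1.68.

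Among the Wnt genes that fell, replicate 1 was the lowest array of its group most often in all 3 groups. On anisomycin arrays it was lowest for 15 of 30 (50%), near the 51.8% of all 4641 genes that fell with anisomycin. On imiquimod arrays it was lowest for 12 of the 28 that fell with imiquimod (42.9%). On vehicle arrays it was lowest for 14 of the 30 that fell with anisomycin (46.7%), a set chosen with those same vehicle arrays. The share over all genes was not taken for imiquimod and vehicle arrays.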
